A study of Mus musculus with 56 samples.

Results

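The 8 genes described here encode the constant regions of the mouse T cell receptor chains, and they were taken by symbol from the 55359 genes of an RNA-Seq count table. They are the gamma constant genes *Trgc1*, *Trgc2*, *Trgc3* and *Trgc4*, the delta constant gene *Trdc*, the alpha constant gene *Trac* and the beta constant genes *Trbc1* and *Trbc2*. The set was chosen by the measured level of *Trgc2*, noted for its rise after pregnancy in sensitized mice, and the other constant genes were taken with it. The levels of the 4 gamma genes in sensitized post-partum against Sensitized cells are therefore given below as a description, with no test. All 8 genes passed edgeR's filter on low counts and were among the 19657 genes tested.

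CD8 T cells specific for the OVA:Kb tetramer (fetus/graft-specific T cells, TFGS) were sorted from spleen and lymph nodes of female C57BL/6 mice, 200 live cells per library, and sequenced with SmartSeq2. Naive mice had neither graft nor pregnancy, and Sensitized mice had received a 2W-OVA.BALB/c skin allograft 30 days or more before. N+P mice were naive mice after a semi-allogeneic pregnancy, sampled on post-partum day 0 to 3 as PD1- cells (N+P C1) or PD1+CD73+ cells (N+P C5). S+P mice were grafted and then pregnant, and their cells were sorted as PD1- (S+P C4), PD1+CD73+ (S+P C5) or PD1+CD73- (S+P C7). All groups share the C57BL/6 genotype, and the ages of the mice were not given in the labels. T cells were enriched before the sort, which excluded cells stained for a panel of markers of other lineages, among them CD11c, F4/80, NK1.1 and TER119. There were 3 Naive samples, 3 of each N+P subset and 4 Sensitized samples. The S+P subsets C4, C5 and C7 had 6, 6 and 5. The p-values measure the spread between these samples, part of which may be technical. Tests between subsets of N+P or S+P mice treated their samples as independent. The exceptions are those named with a replicate block, which pairs subsets by replicate number.

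A T cell carries its receptor as an alpha-beta or a gamma-delta pair, bound to the CD3 chains that pass the signal into the cell. Each chain is built by joining variable and joining segments, with a diversity segment in beta and delta, to a constant region. CD8 T cells that recognise peptide on MHC class I use alpha-beta receptors. The gamma locus of the mouse is arranged in clusters, each with its own variable, joining and constant genes, and gamma genes can be rearranged and transcribed in cells that carry an alpha-beta receptor. The delta segments lie inside the alpha locus, and joining of an alpha variable gene removes them from that chromosome.

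The libraries held 6636532 to 32625243 counts, and the summed samples held 15547934 to 54809406. A column that was the same in Naive replicate 1 and S+P C4 replicate 1 was left out of both groups, and it held 571 counts of *Trgc2*, 422 of *Trgc4* and 218 of *Trdc*. Almost identical libraries of S+P C7 replicates 1 and 2 were averaged and used in 1 sample, named replicate 1/2. Few genes were detected in S+P C7 replicate 3 (7879) and in replicates 2 and 3 of S+P C4 (8002 and 7436), and the other 27 samples had 12383 to 26805. S+P C7 replicate 3 also stood apart in markers of other cells, with summed levels of 19874 CPM for 5 erythroid genes, 6184 for 7 myeloid genes and 1154 for 8 NK cell genes. CPM values are counts scaled to the library size after TMM normalization, and they can be compared between samples for 1 gene but not between genes of different length. In bulk cells, fewer cells with a transcript and less transcript per cell cannot be told apart. The CD8 markers were present in every group, with *Cd8b1* (the CD8 beta chain) between 678 and 2920 CPM. *Cd4* had a group mean of at most 0.618 CPM. Other genes of the CD4 T cell marker list were higher. Summed, its 4 genes had group means from 4.76 CPM in S+P C4 to 29.0 in N+P C5, whose samples ran from 11.3 to 50.4. The sum was 4.79 in Naive, 13.9 in Sensitized and 15.1 in S+P C5 cells.

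The constant genes of the gamma and beta families are close copies, so their likeness is given first. Counts came from read pairs of 150 bases that mapped to 1 place. Sequences were read on each gene's strand from GRCm39 with the GENCODE release M39 annotation. Over the whole first exon of 330 bases, *Trgc1* and *Trgc2* were 97.3% identical with 9 differing bases, *Trgc1* and *Trgc3* 96.1%, and *Trgc2* and *Trgc3* 96.7%. *Trgc4* was further away, with 81.2% to 82.1% identity to the other 3 genes. No stretch of 150 bases was shared between any pair of spliced gamma constant transcripts, and 25.4% of the 50-base windows of *Trgc2* were shared with *Trgc1* or *Trgc3*. A read of 150 bases could thus be placed on 1 gamma gene, while shorter fragments could be lost as mapping to several places.

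The beta genes differ by 1 base in a first exon of 375, a substitution written C260A from *Trbc1* to *Trbc2* and counted from the first base of the exon. The 60 bases around it are chr6:41515382-41515441, plus strand for *Trbc1* and chr6:41523894-41523953, plus strand for *Trbc2*. The capital marks the base that differs.

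Trbc1: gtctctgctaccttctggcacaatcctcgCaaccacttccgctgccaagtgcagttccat
Trbc2: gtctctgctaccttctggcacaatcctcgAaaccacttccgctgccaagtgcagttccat

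Of the 150-base windows, 18.7% of the spliced *Trbc1* transcript and 20.3% of *Trbc2* were shared between these genes. The authors removed reads that map to several places, and how many read pairs of *Trbc1* and *Trbc2* this took was not tested. *Trgc1*, *Trgc2*, *Trgc3* and *Trgc4* lie on chromosome 13 between 19398273 and 19536926, with *Trgc2* on the minus strand. *Trbc1* and *Trbc2* lie on chromosome 6, from 41515152 to 41516815 and from 41523664 to 41525286. *Trdc* (54380308 to 54386325) and *Trac* (54457978 to 54461663) lie on chromosome 14. Exons of *Trdc* overlap *Gm43434* and *Trdv5* on the other strand, and the strand setting of the counting is not given in the sources used here, so reads of *Trdc* and of these genes cannot be told apart.

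The alpha and beta constant genes were the high ones in every sample. *Trac* had group means from 961 ± 163 CPM (SD, n = 3) in N+P C1 to 1422 ± 468 (n = 4) in Sensitized cells, and its 30 samples ran from 758 to 2400. In Naive cells it was 1312 ± 433 (n = 3), and in S+P C7 it was 1377 ± 164 (n = 5). Every group overlapped every other group, and *Trac* passed the test in 0 of the 12 contrasts. Adjusted for transcript length, medians of *Trac* lay between 1070 and 1527 CPM per kb, those of *Trbc1* between 727 and 1896, and those of *Trbc2* between 1962 and 2719. On this scale the median of *Trbc2* was above that of *Trac* in all 7 groups.

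*Trbc2* had 1483 ± 157 CPM (n = 3) in Naive, 1672 ± 512 (n = 4) in Sensitized and 2580 ± 1825 (n = 6) in S+P C5 cells. The spread in S+P C5 came from replicate 2, at 6232, while the other 5 lay between 1463 and 2476. S+P C4 replicate 2 was also high, at 4528, against 1159 to 1554 in the other 5.

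*Trbc1* was 769, 740 and 652 CPM in the 3 Naive samples and 583, 875, 405 and 488 in the 4 Sensitized samples. In S+P C5 it was 497, 1076, 1719, 734, 2601 and 1780 in replicates 1 to 6. In S+P C7 it was 368 in replicate 1/2, 1140 in replicate 3, 691 in replicate 4, 2547 in replicate 5 and 2409 in replicate 6. Some S+P samples were thus well above every Sensitized sample, and others were within their range. The log2 fold change against Sensitized was 1.25 ± 0.48 (SE) in S+P C5 (adjusted p = 0.277, edgeR, Benjamini-Hochberg) and 1.28 ± 0.50 in S+P C7 (adjusted p = 0.473). Against S+P C4, whose samples ran from 179 to 1110, it was 1.05 ± 0.42 in S+P C5 (adjusted p = 0.297, edgeR) and 1.08 ± 0.44 in S+P C7 (adjusted p = 0.244, edgeR). None of these differences passed the threshold.

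**Figure D1:**
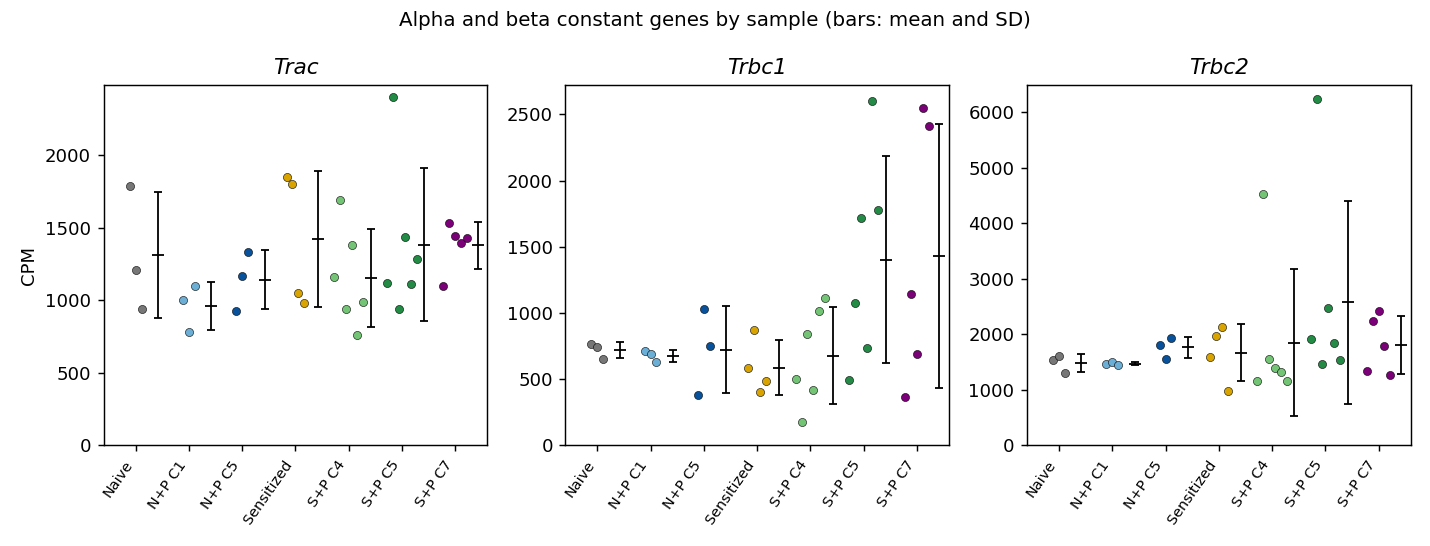
Levels of *Trac*, *Trbc1* and *Trbc2* in CPM for each of the 30 samples, by group, with the group mean and SD as a bar beside the points. *Trbc1* spans 368 to 2547 CPM in S+P C7 and 652 to 769 in Naive cells.

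The balance of the beta genes was taken within each library as the share of *Trbc2* in the sum of both, which needs no normalization. The Wilson 95% intervals of these shares were at most 1.204 percentage points wide. They hold the error of counting alone, because PCR copies of a molecule are counted as separate reads. The share was 66.6%, 68.5% and 66.7% in the 3 Naive samples and 67.4%, 68.6% and 69.7% in N+P C1, a narrow band in both groups. N+P C5 had 82.7%, 60.2% and 72.0%, and Sensitized had 73.1%, 69.3%, 84.1% and 66.9%. S+P samples ran from 51.1% to 96.2% in C4, from 41.4% to 85.3% in C5 and from 34.4% to 78.6% in C7. The SD was 1.04 percentage points in Naive, 7.61 in Sensitized, 16.1 in S+P C4, 19.98 in C5 and 20.7 in C7, and the difference in spread was not tested.

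S+P subsets with the same replicate number were taken to come from 1 mouse, and their shares are given together as a description. Replicate 4 had 77.1% in C4, 77.1% in C5 and 77.8% in C7. Replicate 5 had 56.5%, 41.4% and 41.3% in the same order, and replicate 6 had 51.1%, 46.4% and 34.4%. Replicate 2 was high in both subsets it has on its own, at 96.2% in C4 and 85.3% in C5. Replicate 3 was less even, with 65.0% in C4, 46.0% in C5 and 66.3% in C7. Replicate 1 had 69.7% in C4, 79.5% in C5 and 78.6% in the C7 sample that also holds replicate 2. The technical libraries of a sample differed by a median of 2.18 percentage points, and by at most 6.01, over 23 pairs.

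Group means of the share passed the exact two-sided permutation test in 0 of the 11 contrasts. Against Sensitized (73.4%) the difference was -10.7 percentage points in S+P C5 (exact permutation p = 0.324, adjusted p = 0.770) and -13.7 in S+P C7 (exact permutation p = 0.317, adjusted p = 0.770). For 3 against 3 samples the smallest p this test allows is 0.1.

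**Figure D2:**
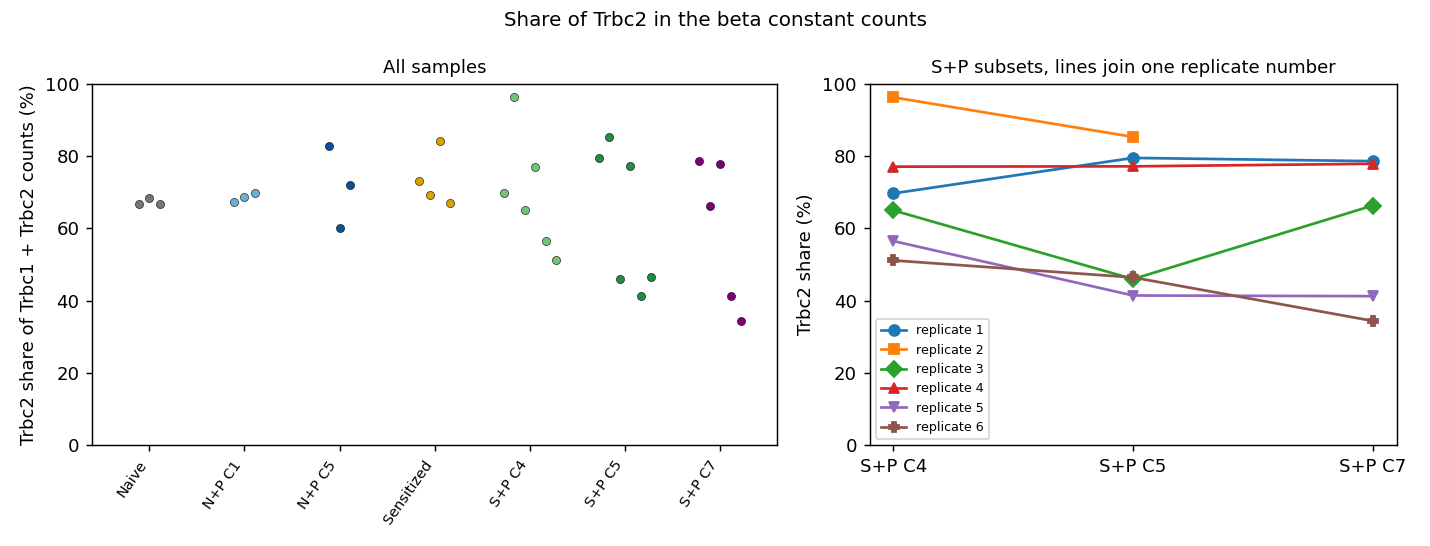
Share of *Trbc2* in the summed *Trbc1* and *Trbc2* counts, in percent. The left panel shows every sample by group, and the right panel joins the S+P subsets with the same replicate number, with the joined sample of replicates 1 and 2 drawn as replicate 1 in C7. The Naive samples sit between 66.6% and 68.5%, and replicates 5 and 6 stay at or below 56.5% in all S+P subsets.

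The gamma constant genes were low outside the S+P groups. *Trgc2* was 3.95, 4.24 and 6.35 CPM in Naive, 4.07, 0 and 1.98 in N+P C1, and 35.5, 0.0292 and 5.62 in N+P C5. In the 4 Sensitized samples it was 0, 0, 0.0303 and 0.0519 CPM, which is 3 counts over the whole group. In S+P C4 it was 41.7, 1374, 0.298, 69.5, 37.0 and 75.2 in replicates 1 to 6. In S+P C5 it was 42.1, 171, 94.5, 58.3, 54.5 and 199, and every value was above every sample of the 4 groups without both graft and pregnancy. In S+P C7 it was 113 in replicate 1/2, 56.5, 151, 107 and 748 in replicates 3 to 6. S+P C4 replicate 3, one of the 3 samples with few detected genes, was the only S+P sample below those of N+P C5 replicate 1.

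*Trgc2* was past 3 counts in 8 of 9 libraries of S+P C4, 10 of 10 of S+P C5 and 9 of 9 of S+P C7. It was past 3 counts in 4 of 5 Naive, 2 of 6 N+P C1, 4 of 6 N+P C5 and 0 of 8 Sensitized libraries. Between the technical libraries of an S+P sample its level differed by a median of 1.38-fold and by at most 1.89-fold, over 11 pairs with both libraries past 3 counts. Of the 12 pairs from other groups, both libraries were past 3 counts in 3, 1 library in 3 and neither in 6. A left-out library that carried the labels of both Naive and S+P C4 had 31.8 CPM of its total counts.

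The Naive mean of *Trgc2* was 237.7 times the level in Sensitized cells, with an exact Poisson 95% interval of 81.3 to 1153 for the 3 counts there (adjusted p = 0.215, edgeR, Benjamini-Hochberg). The gene was noted for being low in these same Sensitized samples, so the difference is not independent of that choice. Neither the interval nor the p-value counts as support. The S+P samples chose the gene as well, so the values of S+P C5 beside those of N+P C5, which ran from 0.0292 to 35.5, are given with no test. Between the S+P subsets, the log2 fold change was -1.37 ± 1.11 for C5 against C4 (adjusted p = 0.732, edgeR) and 1.19 ± 1.14 for C7 against C5 (adjusted p = 1.00, edgeR). Without S+P C4 replicate 2 the first of these was 1.19 (adjusted p = 0.804, edgeR), so its direction rests on that sample.

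*Trgc4* was 44.6, 68.0, 118, 59.8, 58.2 and 170 CPM in S+P C5. The S+P C7 samples had 16.7, 0.0934, 43.4, 86.0 and 261, and those of S+P C4 had 0, 0, 0, 14.3, 2.41 and 56.02. N+P C5 had 38.4, 1.78 and 22.3, Naive had 7.98, 2.48 and 0, and Sensitized had 0.305, 0, 0 and 12.05. Every S+P C5 sample was above every Naive, Sensitized and N+P sample. N+P C5 against N+P C1, whose samples ran from 0.0348 to 1.35, gave a log2 fold change of 5.20 ± 2.58 (adjusted p = 0.919, edgeR). With the replicate block and only these groups compared, it was 5.49 ± 1.03 (adjusted p = 0.205, edgeR). S+P C5 against S+P C4 gave 2.83 ± 1.63 (adjusted p = 0.502, edgeR). *Trgc4* was higher in C5 than in C4 in 6 of 6 pairs with the same replicate number, and with the replicate block the log2 fold change was 7.05 ± 2.71 (adjusted p = 0.999, edgeR), where 3 of the C4 samples are at 0 and the size is no bound. Without S+P C4 replicate 6 it was 4.68 (adjusted p = 0.333, edgeR).

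*Trgc3* had 0 counts in Naive and Sensitized cells, which by counting error alone allows up to 0.0371 and 0.0204 CPM over each group. It was present in S+P replicate 4 in all 3 subsets, at 15.4 CPM in C4, 21.8 in C5 and 34.4 in C7. It was also at 19.0 in S+P C5 replicate 3, and at 6.58 and 5.46 in C4 and C5 of replicate 6. The remaining 11 S+P samples had 0.104 CPM or less. In N+P mice it was 1.93 in 1 of 3 N+P C1 samples and 1.53 in 1 of 3 N+P C5 samples, and at 0 in the others. *Trgc1* was sporadic, with 6.79 CPM in 1 Naive sample, 0 to 9.38 in N+P samples, 0 to 0.234 in Sensitized, and 0 to 7.41 in S+P samples. Over S+P samples *Trgc1* was past 3 counts in 7 of 28 libraries and *Trgc3* in 10 of 28.

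**Figure D3:**
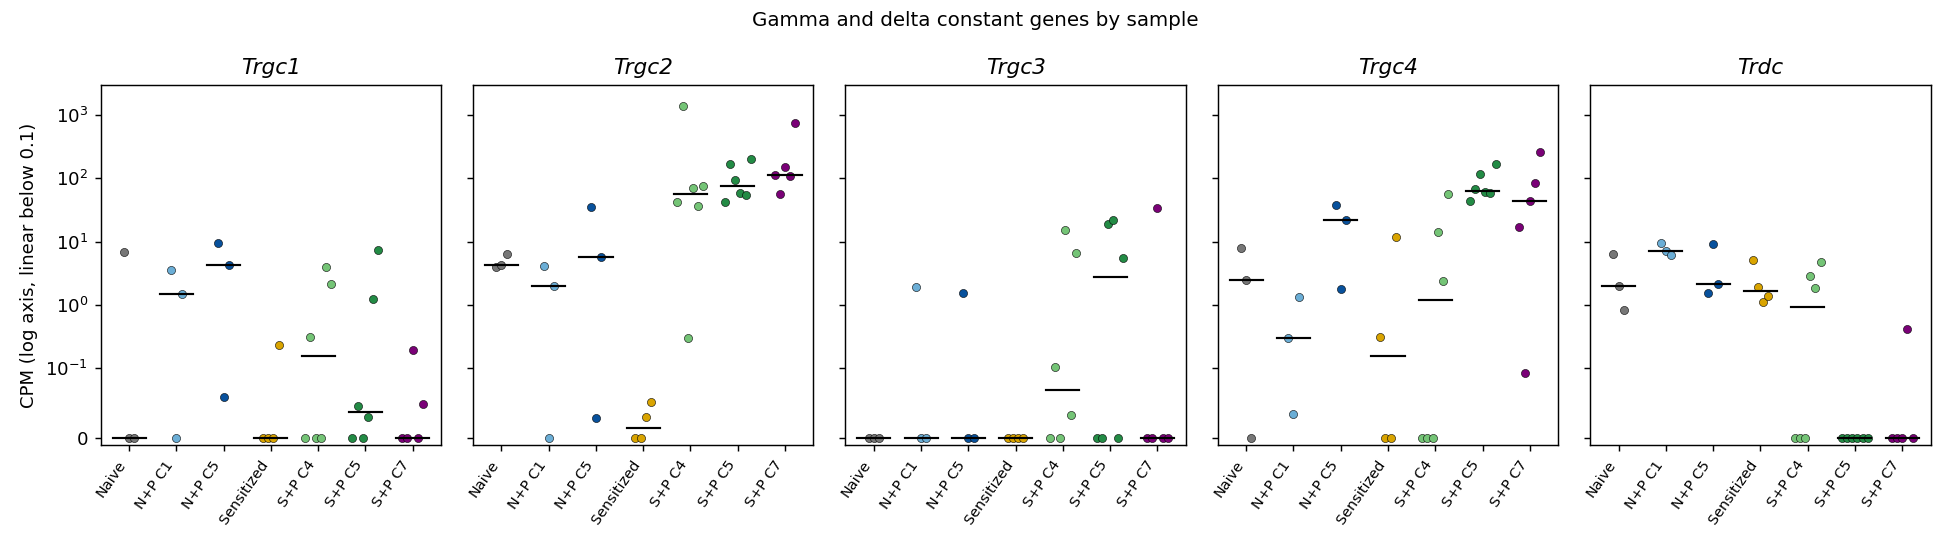
Levels of the 4 gamma constant genes and *Trdc* in CPM for each sample, on a log axis that is linear below 0.1, with the group median as a line. *Trgc2* lies at 42.1 CPM or above in all S+P C5 samples and at 0.0519 or below in Sensitized samples, and *Trdc* is at 0 in all S+P C5 samples.

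Set against the alpha and beta genes of the same library, the 4 gamma constant genes made up 0.189% to 0.456% of constant gene counts in Naive, 0.00117% to 0.311% in N+P C1 and 0.0497% to 2.64% in N+P C5 samples. The share was 0% to 0.499% in Sensitized samples, and the one at 0 of 92988 counts allows up to 0.00323%. It was 0.00893% to 17.7% in S+P C4, 2.01% to 7.66% in S+P C5 and 1.14% to 16.5% in S+P C7. These shares compare counts of transcripts of different length, and their Wilson 95% intervals were at most 0.387 percentage points wide. *Trgc2* made up 40.9% to 71.5% of the gamma counts in S+P C5 samples, and 100% in S+P C4 replicate 1. On a log2 scale with 0.5 added to each sum, the gamma to alpha-beta ratio was -4.85 ± 0.80 (SD, n = 6) in S+P C5 and -7.71 ± 2.95 (n = 3) in N+P C5. That difference rests in part on the S+P values that chose *Trgc2*, and its test is not read here. It was 1 of the 8 contrasts over which the exact permutation p-values were adjusted. Sensitized against Naive, another of the 8, rests in part on the low *Trgc2* values of Sensitized cells for which the gene was noted. Its test is not read either. The remaining contrasts, within S+P and among the Naive and N+P groups, had an adjusted p of at least 0.672 in the exact permutation test.

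Variable and joining segments were counted as genes of their own, so they could be set beside the constant gene of their cluster. Of the 37 libraries with more than 3 counts of *Trgc2*, 33 also had more than 3 of *Trgv2* and 21 had *Trgj2*, against 3 and 0 of the 16 libraries without it. *Trgv3* was present in 11 of the 12 libraries with *Trgc3* and in 1 of the 41 without. *Trgv1* was present in 26 of the 35 libraries with *Trgc4* and in 2 of the 18 without, and *Trgj4* in 22 and 0. The segments of the *Trgc1* cluster were rare, with *Trgv6* in 4 libraries, *Trgv4* in 3 and *Trgv5*, *Trgv7* and *Trgj1* in 1 each, and *Trgj3* was in 1.

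The highest *Trgv2* levels were in the samples with the highest *Trgc2*, at 305 CPM in S+P C4 replicate 2 and 123 in S+P C7 replicate 6. S+P C7 replicate 3 did not follow this, with 56.5 CPM of *Trgc2*, 0.0467 of *Trgv2* and 0 of *Trgj2*. At lower levels, Naive replicate 2 had 4.24 CPM of *Trgc2* and N+P C1 replicate 3 had 1.98, both with 0 of *Trgv2*. The opposite was seen in Sensitized replicates 2 and 4, with 7.05 and 2.26 CPM of *Trgv2* and 0 and 0.0519 of *Trgc2*. The mean of *Trgv2* was 2.34 ± 3.32 CPM (SD, n = 4) in Sensitized and 1.24 ± 1.07 (n = 3) in Naive cells. Over the 30 samples, the 5 tested genes outside the constant genes whose log2 CPM followed *Trgc2* most closely were *Trgv2* (Spearman's rho 0.847), *Trgj2* (0.846), *Med7* (0.820), *Hip1* (0.775) and *Gm3468* (0.751). For *Trac* they were *Mrpl18* (0.745), *Erhrt-ps* (0.667), *Lsm6* (0.655), *Svbp* (0.621) and *Uqcrq* (0.621). These are descriptions over samples that share groups and libraries.

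**Figure D4:**
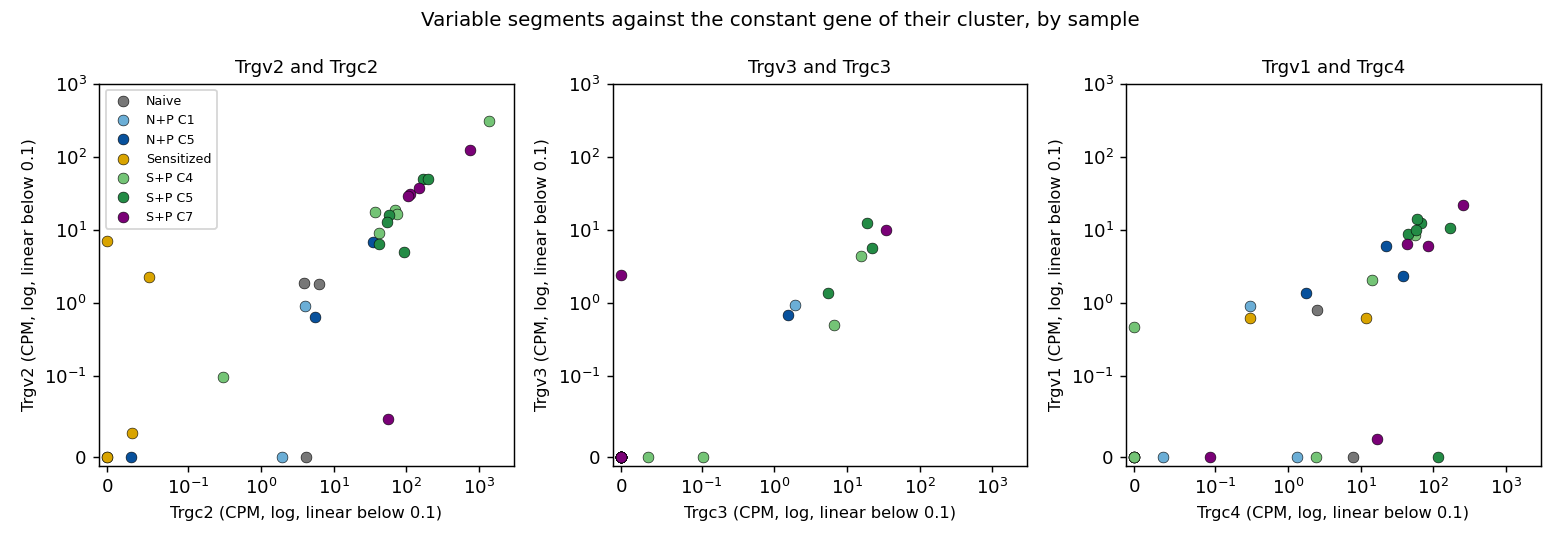
Each point is 1 of the 30 samples, with the CPM of a gamma constant gene on the x axis and of a variable segment of the same cluster on the y axis, both on log axes that are linear below 0.1. S+P C4 replicate 2 lies at the upper right of the first panel, at 1374 CPM of *Trgc2* and 305 of *Trgv2*.

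The delta constant gene was low in all groups and lowest in the PD1+ S+P cells. *Trdc* was 6.34, 1.99 and 0.831 CPM in Naive, 9.67, 7.18 and 6.09 in N+P C1, and 5.09, 1.90, 1.12 and 1.38 in Sensitized samples. The N+P C5 samples had 1.53, 9.21 and 2.17. It was 0 in replicates 1 to 3 of S+P C4 and 2.82, 1.83 and 4.79 in replicates 4 to 6. Each of replicates 1 to 3 is 1 library here, and replicates 2 and 3 had few detected genes. The left-out library, which carried the labels of both Naive and S+P C4 replicate 1, had 218 counts of *Trdc*. It was 0 in all 6 samples and 10 libraries of S+P C5, which by counting error alone allows up to 0.0144 CPM over the group. In S+P C7, 4 samples were at 0 and replicate 5 had 0.414 CPM, from 16 counts in 1 library. All 13 samples from mice without both treatments had *Trdc*, and 4 of the 17 S+P samples did.

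Set against the limit of 3 counts in S+P C5, the mean of *Trdc* was 165-fold in Sensitized, 299-fold in N+P C5 and 109-fold in S+P C4 cells. These ratios hold counting error alone and are no lower bounds. In Sensitized replicate 1, for example, 1 library had 283 counts and the other had 0. None of the 3 differences from S+P C5 passed the test, with adjusted p-values of 0.205, 0.594 and 0.297 from edgeR. DESeq2 on the same samples called all 3, and both tools had it lower in S+P C5. The interaction, the pregnancy effect in memory minus that in naive cells, had an adjusted p of 0.649 (edgeR). Within samples *Trdc* was uneven between technical libraries. Of the 12 pairs outside S+P, both libraries were past 3 counts in 4 and 1 library in 8, and of the 11 S+P pairs it was both in 1, 1 library in 3 and neither in 7.

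The 10 delta variable, diversity and joining segments had a summed level of 2.02 to 11.6 CPM in Naive, 8.64 to 10.3 in N+P C1, 0.0310 to 1.81 in N+P C5 and 0.05 to 9.65 in Sensitized samples. In S+P C4 they were at 0 in replicates 1 to 3 and at 2.88, 41.0 and 2.83 in replicates 4 to 6, the samples that also had *Trdc*. All 10 were at 0 in every S+P C5 sample, and S+P C7 samples had 0 to 1.82. *Trdv2-2*, the most abundant of them, had 4.14 CPM in Naive, 4.61 in N+P C1, 3.22 in Sensitized and 0.816 in S+P C4 as group means. *Dntt*, which adds bases at the joints of rearranging receptor genes, had 23.6 to 71.8 CPM in Naive samples and at most 0.183 in S+P C5 samples.

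**Figure D5:**
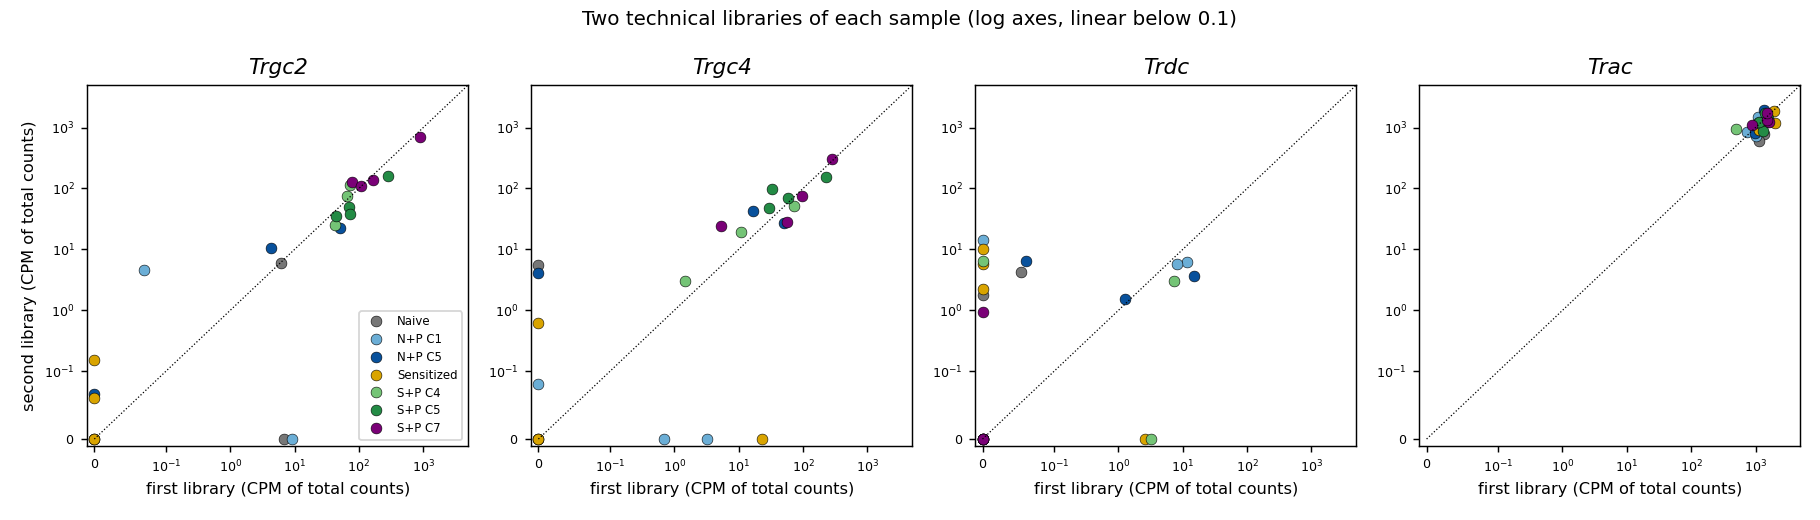
The technical libraries of a sample plotted against each other in CPM of total counts, on log axes that are linear below 0.1, with a dotted line of equality. *Trac* lies close to the line in all 23 pairs, and *Trdc* lies on an axis for many of them.

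With edgeR's test, 0 of the members tested were past both thresholds (adjusted p under 0.1 and absolute log2 fold change above 0.9) in any of the 12 contrasts. The gamma genes were left aside in S+P against Sensitized, in S+P C5 against N+P C5 and in the interaction. They still count in the shares of all genes below. Among all genes 0.153% were called for Sensitized against Naive, 0% for N+P C1 against Naive, 0.0407% for N+P C5 against Naive and 0.00509% for N+P C5 against N+P C1. Against Sensitized it was 0.00509% for S+P C4, while C5 had 0.0712% and C7 had 0.0305%. Within S+P it was 0.0305% for C5 against C4, 0.00509% for C7 against C4 and 0% for C7 against C5. For S+P C5 against N+P C5 it was 0%, and for the interaction 0.0254%. DESeq2 and edgeR differed widely in how many genes they called.

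At an unadjusted p under 0.05, edgeR had 1 of 8 members for Sensitized against Naive, where 7.82% of all genes were that low. That member was *Trgc2*, noted for being low in these Sensitized samples, so it is no support. For N+P C1 against Naive (3.23% of all genes), N+P C5 against Naive (5.33%) and N+P C5 against N+P C1 (4.31%) edgeR had 0 of 8. Against Sensitized it had 0 of 4 in S+P C4 (12.7%), and both *Trdc* and *Trbc1* in S+P C5 (13%) and S+P C7 (10.2%). Against S+P C4 it had the same pair, of 8 members, in S+P C5 (13.3%) and S+P C7 (15.9%). *Trdc* alone was past it for S+P C7 against S+P C5 (12.7%), through replicate 5 of C7, and for the interaction (6.42%), where the gamma genes were left aside. *Trdc* was also past it for S+P C5 against N+P C5 (5.88%). The gamma genes are not read there, because the S+P values chose *Trgc2*.

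With DESeq2 on the summed samples, 5.09% of all genes were called for Sensitized against Naive, among them *Trgc2*, lower in Sensitized. That gene was noted for being low in these Sensitized samples. *Trgc3* was called higher in N+P C1 (3.23% of all genes) and N+P C5 (4.9%) than in Naive cells, each through 1 mouse. *Trdc* was called lower in S+P C5 than in Sensitized (5.32%), in S+P C4 (4.67%) and in N+P C5 (2.47%), and for the interaction (3.9%). No member was called for N+P C5 against N+P C1 (3.82%), or for S+P C7 against S+P C4 (5.26%) and S+P C5 (2.45%). *Trdc*, *Trac*, *Trbc1* and *Trbc2* were not called in S+P C4 (4.53%) or S+P C7 (3.49%) against Sensitized. The gamma genes are left aside in all S+P contrasts against Sensitized, though they count in the shares of all genes.

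Related lists were counted in the edgeR fit, and there 0 of their genes passed both thresholds in the 12 contrasts. DESeq2 on the summed samples, which called 2.45% to 5.32% of all genes per contrast, was counted over the same 12 contrasts. It made 9 calls of gamma segments, all higher, and 1 higher and 2 lower of delta segments. The gamma calls include *Trgj2* and *Trgv3* in each S+P subset against Sensitized, the samples that chose *Trgc2*, so they are no separate support. DESeq2 also made 8 higher and 5 lower calls of the gamma-delta T cell programme, 3 lower of *Dntt* and 0 of CD3 chains. The lists held 7 tested gamma segments, 5 delta segments, 4 CD3 chains, 1 gene of recombination and 6 of a gamma-delta T cell programme, besides the markers of other cells. The CD3 chains were high in all groups, with *Cd3g* (the gamma chain of CD3) at 863 to 1147 CPM as group means. Of the gamma-delta T cell genes, the transcription factor *Sox13* had a group mean of at most 0.582 CPM, and *Tmem176b*, the most abundant, had 141 CPM in S+P C7 replicate 3 and at most 20.8 in any other sample. Summed, the 10 gamma-delta genes had 0 to 15.9 CPM in Naive, 3.07 to 5.09 in N+P C1 and 2.17 to 41.7 in N+P C5 samples. The sums were 0.971 to 21.8 in Sensitized, 0 to 23.7 in S+P C4, 0.0457 to 55.6 in S+P C5 and 0.418 to 141 in S+P C7 samples. Summed NK cell markers were 73.1 to 145 CPM in Sensitized, 0.833 to 120 in S+P C4, 0.0254 to 62.3 in S+P C5 and 12.4 to 1154 in S+P C7 samples. *Trgc2* in S+P C7 replicate 3, the sample with the highest level of these markers, was the lowest of its group. That is 1 sample with few detected genes (7879). The part of other cells in the levels of the constant genes was not tested.

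The nearest tested protein-coding genes beside the gamma locus were *Vps41* and *Stard3nl*. *Vps41* had 106 ± 48.1 CPM (n = 4) in Sensitized and 103 ± 34.9 (n = 6) in S+P C5, and *Stard3nl*, 4.92 kb from the locus, had 55.5 ± 16.1 and 72.4 ± 17.4. Beside *Trac*, *Dad1* had 420 ± 179 in Sensitized and 412 ± 197 in S+P C5, and *Sall2* on the other side had 1.82 ± 3.30 and 10.7 ± 13.9. Beside the beta genes, *Ephb6* had 1.31 ± 1.43 and 32.2 ± 41.7, and *Prss2* had 2.25 ± 4.51 and 11.3 ± 17.6. None of these 6 genes passed the test in any of the 12 contrasts, and their lowest adjusted p was 0.244 (edgeR).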

How the data were processed

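RNA-Seq was made with SmartSeq2 from sorted CD8 T cells, with technical libraries of most samples. The authors trimmed reads with Cutadapt 3.4, aligned them to GRCm39 with STAR 2.6.1b, removed reads that map to several places and counted reads per gene with featureCounts 2.0.1, and the deposited table holds these raw counts. The strand setting and annotation release are not given in the sources used here. Technical libraries were summed to 30 samples. One column shared by 2 groups was left out, and near-identical libraries of S+P C7 replicates 1 and 2 were averaged. Genes were tested with edgeR 4.0.16 (TMM, filterByExpr minimum count 10, robust quasi-likelihood test, 7 groups in 1 fit) in R 4.3.3, with Benjamini-Hochberg adjustment over 19657 genes, and a call needed an adjusted p under 0.1 with a log2 fold change past 0.9 in size. Ratios within samples were compared by exact two-sided permutation tests (scipy 1.17.1). DESeq2 1.42.0, other normalizations and filters, separate libraries, a replicate block and leaving out samples were alternatives. The scripts were tested on simulated data. Deviations from group means correlated at 0.148 on average for the same replicate number and at -0.0208 for different numbers within the mice of 1 treatment, whose subsets were taken as paired. The members and gene lists were chosen with earlier results of these data known. All members are named, with the 5 genes most like *Trgc2* and *Trac* by Spearman's rho and the nearest tested protein-coding genes. Intervals at 95% and limits from a count of 0 (3 counts) cover counting error only. Sample totals of 15547934 to 54809406 counts set the precision. Some sequences and 1 marker gene are not reported here.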

Additional observations from a re-analysis of the deposited data

Results flagged for a closer look

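Of 38 sets of values of 4 to 10 samples, 13 had 1 sample that stood apart from the rest of its group by Dixon's ratio. For values with a normal spread, chance alone gives about 1 in 20. Some sets, such as *Trgc3* and *Trdc* in S+P C7, are at 0 in all samples but 1, which then stands apart by construction. The share that stood apart thus cannot be set against that rate. For the gamma genes these were *Trgc2* at 1374 CPM in S+P C4 replicate 2 and at 748 in S+P C7 replicate 6, *Trgc3* at 34.4 in S+P C7 replicate 4, and *Trgc4* at 12.05 in Sensitized replicate 4 and 56.02 in S+P C4 replicate 6. *Trgc1* stood apart at low levels, at 0.234 CPM in Sensitized replicate 4, 7.41 in S+P C5 replicate 6 and 0.195 in S+P C7 replicate 4. *Trdc* stood apart in S+P C7 replicate 5, at 0.414 CPM. S+P C5 replicate 2 was high in *Trac*, at 2400 CPM, and in *Trbc2*, at 6232 CPM, and S+P C4 replicate 2 was high in *Trbc2*, at 4528. The log2 ratio of gamma to alpha-beta counts was lowest in S+P C4 replicate 3, at -13.23. S+P C4 replicates 2 and 3 were among the 3 samples with few detected genes. The part of this in the values was not tested.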

How the results depend on the processing

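The count of members called left aside the gamma genes in S+P against Sensitized, in S+P C5 against N+P C5 and in the interaction. It was 0 in every contrast in the edgeR fit described above and in its fits without 1 replicate. For Sensitized against Naive the count was 1 (*Trgc2*) with edgeR or DESeq2 on separate libraries, DESeq2 on summed samples, a minimum mean of 10 CPM, or without the 3 samples with few detected genes. *Trgc2* was noted for being low in these Sensitized samples, so this count is no support. For N+P C1 and N+P C5 against Naive it was 1 (*Trgc3*) with DESeq2 on summed and separate libraries, and for N+P C5 against N+P C1 it was 1 (*Trgc4*) with DESeq2 on separate libraries. For S+P C5 against Sensitized it was 2 (*Trbc1* and *Trdc*) with either tool on separate libraries, and 1 (*Trdc*) with DESeq2 on summed samples, with only the groups compared, or without the 3 samples. For S+P C7 against Sensitized it was 1 (*Trbc1*) with either tool on separate libraries. For S+P C5 against S+P C4 and against N+P C5 it was 1 (*Trdc*) with either tool on separate libraries, DESeq2 on summed samples, or without the 3 samples, and for the interaction 1 (*Trdc*) with DESeq2. Separate libraries of 1 sample are not replicates. DESeq2 called 623 to 1102 genes per contrast and edgeR 0 to 30, and the cause was not tested. The replicate block changed no call of a member. It turned the *Trbc2* share of S+P C7 against S+P C5 from -2.94 to 1.59 percentage points, as did keeping all 56 columns (0.161), and leaving out 1 replicate gave -7.49 to 3.37, and -7.67 without replicate 1/2 of C7. Leaving out 1 replicate gave -1.20 to 10.1 for N+P C5 against Naive and -2.48 to 8.78 against N+P C1. For the log2 gamma ratio it gave -0.41 to 2.47 for N+P C5 against Naive, -0.050 to 2.15 for S+P C5 against S+P C4 and -0.17 to 0.85 for S+P C7 against S+P C5. The log2 fold change of *Trdc* for S+P C7 against S+P C5 was 0 without S+P C7 replicate 5 and up to 4.84 without another replicate. That of *Trgc2* for S+P C7 against S+P C4 went from -0.18 to 2.37 without S+P C4 replicate 2. None of these passed its test.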
